A study of Homo sapiens with 18 samples.

Results

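Histone marks at the constitutive proteasome subunit genes were measured in MOLM-13 cells, a human acute myeloid leukemia line that carries a KMT2A rearrangement, after treatment with PR-957. PR-957, also called ONX-0914, is an inhibitor of PSMB8, the immunoproteasome form of the chymotrypsin-like subunit. The PR-957 libraries came from cells given 100 nM of the compound and the control libraries from cells given the solvent DMSO, both for 72 h by the sample labels, and all cells belong to this single line. A figure legend of the study gives a shorter time for this comparison, and the labels were followed. Cut&Tag, in which an antibody directs a transposase to a histone mark, was done for H3K27ac, H3K27me3, H3K4me1 and H3K4me3 with 2 libraries per treatment and mark, and 16 libraries were analysed. The labels do not say whether libraries of a treatment came from separate cultures, so that the tests measure the spread between libraries, which may be technical. Controls with IgG (2 samples) are not analysed here.

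The genes were chosen by symbol. Protein-coding genes of GENCODE release 44 named PSM, followed by a letter from A to G and digits, were taken without PSMB8, PSMB9, PSMB10, PSME1 and PSME2, which left 43 of 20033 protein-coding genes. For each mark, every gene was assigned 1 interval from the authors' list. Among the intervals that overlap 2 kb on either side of a transcription start site of the gene, the one with the most counts on average was taken. A level is given as CPM, the count scaled to a common library size, or, where genes are compared, as CPM per kb of the interval. A difference is the log2 fold change of PR-957 over DMSO, fitted over all intervals of the mark.

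The 26S proteasome degrades ubiquitin-tagged proteins. Its core is a barrel of outer rings of alpha subunits (PSMA), which gate the entry, around inner rings of beta subunits (PSMB). In the constitutive core the peptide bonds are cut by PSMB6 (caspase-like), PSMB7 (trypsin-like) and PSMB5 (chymotrypsin-like). In blood cells these can be replaced by the immunoproteasome subunits, PSMB8 taking the place of PSMB5. The regulatory particle has a base with a ring of ATPases (PSMC), which unfold the substrate, and a lid (part of the PSMD genes), in which PSMD14 removes ubiquitin. Cells that lose proteasome activity are known to raise transcription of the subunit genes together, through the factor NFE2L1, which binds antioxidant response elements. H3K4me3 and H3K27ac mark active promoters, H3K4me1 is most typical of enhancers and promoter flanks, and H3K27me3 is laid down by Polycomb at silent genes.

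Promoter sequence was read from RefSeq windows on build GRCh38.p14 that reach from 250 bases before to 50 bases after a start, in which 37 of the 43 members had an entry. The following promoters are shown because PSMG1 had the highest H3K4me3 and H3K27ac of all members, PSMB5 encodes the constitutive counterpart of the inhibited subunit, and PSMA3 had the lowest H3K4me1 in DMSO. Capitals mark matches, on either strand, to the antioxidant response element core TGACNNNGC, the CCAAT box, the ETS motif CCGGAAG or GCGCATG, a part of the motif of nuclear respiratory factor 1. Sequences run 5′ to 3′ on the strand of the gene and stop where a GENCODE transcript of the gene begins.
PSMG1, chr21:39183489-39183701, minus strand: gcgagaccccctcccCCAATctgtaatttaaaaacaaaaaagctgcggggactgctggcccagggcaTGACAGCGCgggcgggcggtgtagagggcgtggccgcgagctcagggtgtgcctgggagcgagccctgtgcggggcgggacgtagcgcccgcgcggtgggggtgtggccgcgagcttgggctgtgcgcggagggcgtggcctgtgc
PSMB5, chr14:23035231-23035470, minus strand: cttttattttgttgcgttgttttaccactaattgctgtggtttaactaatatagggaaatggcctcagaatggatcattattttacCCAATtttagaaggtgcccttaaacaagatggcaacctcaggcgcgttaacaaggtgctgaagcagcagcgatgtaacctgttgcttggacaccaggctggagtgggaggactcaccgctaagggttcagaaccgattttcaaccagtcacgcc
PSMA3, chr14:58244593-58244842, plus strand: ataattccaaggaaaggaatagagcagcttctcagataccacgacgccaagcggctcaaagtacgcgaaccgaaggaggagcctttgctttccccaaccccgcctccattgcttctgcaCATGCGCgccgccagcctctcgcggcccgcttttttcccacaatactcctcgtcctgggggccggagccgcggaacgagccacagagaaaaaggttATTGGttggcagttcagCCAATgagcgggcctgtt

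Each motif was found in a larger share of the members than of all genes, a gene with several windows counting once. TGACNNNGC was present in the windows of 12 of the 37 members (32.4%) and of 16.1% of the 27305 genes of the table. CCGGAAG was present in 15 members (40.5%) against 12.2% of genes, GCGCATG in 5 (13.5%) against 5.3%, and CCAAT in 19 (51.4%) against 39.7%. PSMG1 carried the antioxidant response element core 183 bases before its RefSeq start, which lies 37 bases beyond the end of the sequence shown, whereas PSMB5 held only a CCAAT box and PSMA3 held GCGCATG and 2 CCAAT boxes. The 27305 genes are more than the 20033 protein-coding genes used elsewhere, so that this background is not limited to protein-coding genes. The median GC share was 62.3% for the members and 59.7% for all genes, a gene with several windows entering with its most GC-rich one. Whether this accounts for the motif shares was not tested. A match describes these letters and does not show binding of a factor. A further shared feature was the arrangement of the genes. Of the 43 members, 12 (27.9%) had a start of another protein-coding gene on the opposite strand within 1 kb upstream, such as PSMB1 with TBP, PSMC2 with DNAJC2 and PSMA2 with MRPL32, compared to 16.2% of all protein-coding genes. At these genes an interval can hold fragments of both promoters.

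Total counts over intervals were 9885836 to 14165777 per library for H3K27ac, 10032503 to 12047958 for H3K27me3, 15204186 to 30584219 for H3K4me1 and 30070119 to 44591150 for H3K4me3. In H3K4me3 and H3K4me1 both PR-957 libraries were shallower than both DMSO libraries. The intervals overlap each other (2.41 to 3.67 per group of overlapping intervals), so that a fragment can count in several of them. All 8 myeloid marker genes examined, including SPI1, CEBPA and FLT3, had an H3K27ac interval and 7 of 8 an H3K4me3 interval (not MPO), whereas CD3E, GATA1, HBB, ALB and MYOD1 had neither an H3K27ac nor an H3K4me3 interval.

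Nearly all members had the marks of active promoters. An H3K4me3 interval was present at 39 of 43 members (90.7%, against 63.9% of protein-coding genes) and an H3K27ac interval at the same 39 (90.7% against 60.4%). In all 39, both intervals contained an annotated start and overlapped each other. H3K4me1 was found within 2 kb of 20 members (46.5% against 43.4%) and H3K27me3 at only 2 (4.65% against 19.8%). PSMA8, the alpha subunit of spermatogenic cells, and PSMB11, the beta subunit of the thymic cortex, had no interval of any mark, the nearest H3K4me3 interval being 41.9 kb and 5.98 kb away. PSMB3 and PSMC4 are not analysed here, as the interval lists hold no interval within 87.8 kb and 162 kb of them, but the shares above count both as members without an interval. Over the other 41 members the shares were 95.1% for H3K4me3 and for H3K27ac, 48.8% for H3K4me1 and 4.88% for H3K27me3.

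The level of the promoter marks differed widely between members in DMSO. For H3K4me3 the median member stood at 5.32 CPM per kb and for H3K27ac at 5.37 CPM per kb, against 4.59 and 4.00 over all protein-coding genes with an interval. PSMG1, a chaperone that helps assemble the alpha ring, was highest in both. Its H3K4me3 level was 12.5 CPM per kb (percentile 99.0 of genes) and its H3K27ac level 18.2 CPM per kb (percentile 98.9). Next in H3K27ac came PSMG2, the partner of PSMG1 in this chaperone, at 13 CPM per kb (percentile 96.0), and in H3K4me3 the beta subunit PSMB1 at 9.86 CPM per kb. Both of these intervals are shared with a gene on the opposite strand, CEP76 for PSMG2 and TBP for PSMB1.

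The lowest levels were found in the beta ring. PSMB6 was the lowest member in both marks, with 1.36 CPM per kb of H3K4me3 (percentile 10.1) and 0.42 CPM per kb of H3K27ac (percentile 0.132 of genes with an interval). PSMB7 had 2.54 CPM per kb of H3K4me3 (percentile 20.9) and 1.3 CPM per kb of H3K27ac (percentile 7.63). PSMB4, a beta subunit without a catalytic site, lay between them in H3K4me3 at 2.48 CPM per kb (percentile 20.3). PSMB5 stood near the middle of all genes, with 4.19 CPM per kb of H3K4me3 (percentile 43.4) and 4.38 CPM per kb of H3K27ac (percentile 55.0). Thus the genes of the trypsin-like and caspase-like sites carried little H3K27ac for promoters of this family, while the chymotrypsin-like gene did not stand out. Between both marks the ranks of the members' levels correlated with a Spearman rho of 0.52 across 39 genes, compared to 0.667 across 11364 protein-coding genes. These are correlations across genes that share libraries, and genes are not replicates.

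**Figure D1:**
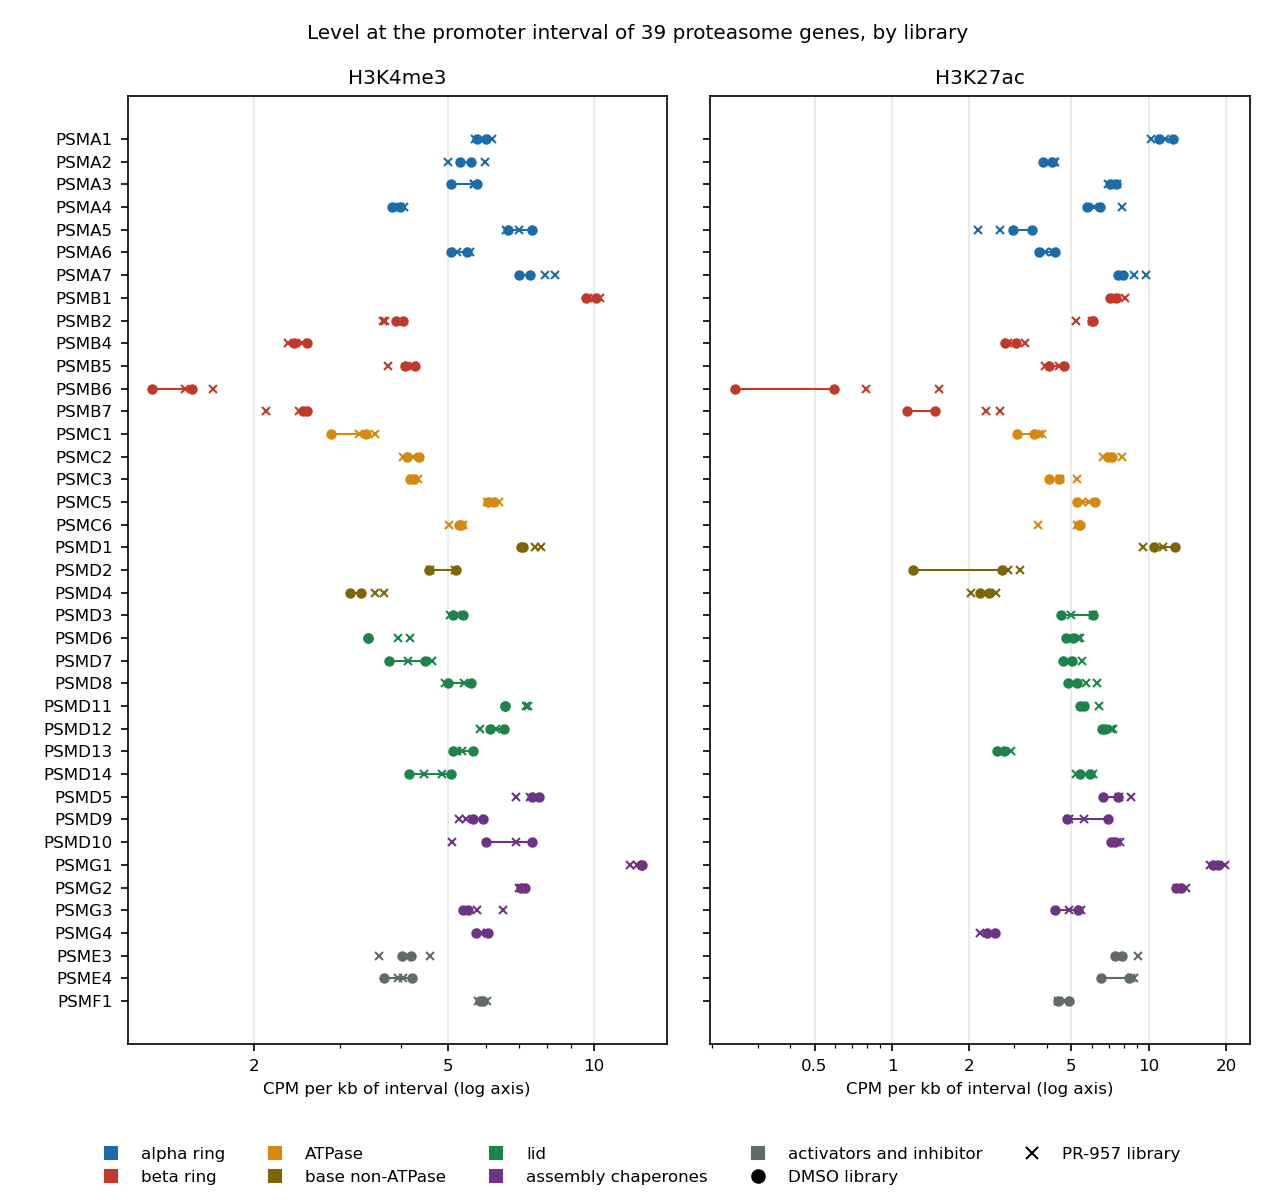
Level of H3K4me3 (left) and H3K27ac (right) at 39 proteasome genes, as CPM per kb of the interval on a log axis. Filled circles joined by a line are the DMSO libraries and crosses the PR-957 libraries, coloured by the role of the subunit. PSMG1 lies at the top of both panels' range and PSMB6 at the bottom, and in H3K27ac the libraries of PSMB6 and PSMD2 are spread widely.

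The first comparison asked whether the promoter H3K4me3 of these genes changed on PR-957. No member passed the threshold, an adjusted p below 0.05 by edgeR's quasi-likelihood test over all intervals, among 39 tested. The background was low as well, with 0.219% of 12795 protein-coding genes called. At an unadjusted p below 0.05 there were 4 members in edgeR, all higher in PR-957, and 1 in DESeq2, against 8.03% of genes in edgeR. Of the 12795 genes, 472 were higher and 556 lower at this cut in edgeR, and the share in DESeq2 is not given. The median difference of the members was 0.01 on the log2 scale (all genes, -0.01), and single members ranged from -0.16 for PSMD10 to 0.24 for PSMD6. For all 39 members the 95% confidence interval lay within a 1.5-fold change in either direction.

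The catalytic subunits illustrate this. PSMB5 had an H3K4me3 level of 13.8 and 14.4 CPM in the DMSO libraries and 12.7 and 14.3 CPM in the PR-957 libraries, which overlap (log2 fold change -0.06, SE 0.0993, adjusted p = 0.944 in edgeR). PSMB6 had 4.16 and 5.05 CPM in DMSO and 5.55 and 4.85 CPM in PR-957, also overlapping (0.18, SE 0.181, adjusted p = 0.896 in edgeR). At PSMB7 both PR-957 libraries (5.28 and 6.17 CPM) lay below both DMSO libraries (6.31 and 6.39 CPM), by less than the test could call (-0.15, SE 0.157, adjusted p = 0.901 in edgeR).

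The smallest p-values in H3K4me3 belonged to the lid subunit PSMD6, the alpha subunit PSMA7 and the chaperone PSMG3. PSMD6 had 11.7 and 11.7 CPM in DMSO and 13.5 and 14.2 CPM in PR-957 (log2 fold change 0.24, SE 0.103, adjusted p = 0.523 in edgeR). PSMA7 had 39.3 and 37.4 CPM in DMSO and 42.2 and 44.2 CPM in PR-957 (0.17, SE 0.0734, adjusted p = 0.533). PSMG3, which pairs with PSMG4 in a chaperone of the alpha ring, had 25.3 and 25.9 CPM in DMSO and 27 and 30.5 CPM in PR-957 (0.17, SE 0.0784, adjusted p = 0.616). In all of these both PR-957 libraries lay above both DMSO libraries. This was so for 6 of 39 members (15.4%), against 16.9% of genes, and the reverse for 5 (12.8%), against 21% of genes.

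H3K27ac gave the same absence of calls, with wider errors. None of the 39 members passed the threshold in edgeR (smallest adjusted p 0.32), against 0.48% of 12089 protein-coding genes. At an unadjusted p below 0.05 there were 5 members in edgeR, 4 higher and 1 lower in PR-957, and 2 in DESeq2, against 9.55% of genes in edgeR. Of the 12089 genes, 509 were higher and 646 lower at this cut in edgeR, and the share in DESeq2 is not given. For 33 of 39 members the 95% confidence interval lay within 1.5-fold.

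Most members nevertheless had slightly more H3K27ac in PR-957. The fitted difference was above 0 for 28 of 39 (71.8%, against 50.2% of genes), and the median was 0.08 on the log2 scale against 0.00 over all genes. Both PR-957 libraries lay above both DMSO libraries at 14 members (35.9%, against 19.1% of genes) and below them at 3 (7.69%, against 19.3%). The median kept between 0.06 and 0.09 under all alternatives tried, including each library left out. Divided by role, all 8 lid genes had a positive difference, from 0.01 for PSMD14 to 0.25 for PSMD8, with a median of 0.11, and 4 of them did not overlap between treatments. The sign turned for 3 of the 8 genes under some alternatives, with lowest values of -0.12 for PSMD14 and -0.00 for PSMD7 without PR-957 replicate 2 and -0.12 for PSMD3 without DMSO replicate 1. Of the core subunits 8 of 13 were positive (median 0.07), of the ATPases 4 of 5 (median 0.02), and of the other members, including chaperones and activators, 8 of 13 (median 0.04). No p is given for the list, since its members were chosen with results of these data known.

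By gene, the alpha subunit PSMA7 had the smallest p, with 39.2 and 37.5 CPM of H3K27ac in DMSO and 43.6 and 48.5 CPM in PR-957. Its difference was 0.27 (SE 0.0939, adjusted p = 0.32 in edgeR), and the interval is shared with SS18L1, the gene on the opposite strand. PSMB7 had 2.35 and 1.81 CPM in DMSO and 3.72 and 4.22 CPM in PR-957 (0.92, SE 0.376, adjusted p = 0.444). PSMD2, with PSMD1 a scaffold of the base, had 6.51 and 2.92 CPM in DMSO and 6.84 and 7.6 CPM in PR-957 (0.58, SE 0.243, adjusted p = 0.47), and its difference was 0.16 when DMSO replicate 2 was omitted and 1.31 when DMSO replicate 1 was.

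PSMB6 showed the largest fitted difference, 1.43 (SE 0.671, adjusted p = 0.557 in edgeR), on very few counts. Its interval, chr17:4795635-4797288, held 13 and 4 counts in DMSO and 13 and 36 in PR-957, which correspond to 0.984 and 0.403 CPM and to 1.31 and 2.53 CPM. With each library omitted in turn the difference was between 0.84 (PR-957 replicate 2) and 2.25 (DMSO replicate 1). PSMB5, in contrast, had 17.7 and 20.2 CPM in DMSO and 17.1 and 19.4 CPM in PR-957 (-0.04, SE 0.146, adjusted p = 0.982). Hence among the catalytic genes both with little H3K27ac were higher in every PR-957 library, and PSMB5 overlapped. Both lie in the lowest 25% of genes by mean H3K27ac level of all libraries, where 21.1% of genes were higher in both PR-957 libraries. In that group 56.1% of genes had a positive difference. The low level was read from the DMSO libraries, which also enter the difference. In H3K4me3 both PR-957 libraries lay below both DMSO libraries at PSMB7, and PSMB6 overlapped. Whether level accounts for the rise was not tested. The lowest difference was that of the alpha subunit PSMA5, with 9.69 and 11.5 CPM in DMSO and 7.04 and 8.59 CPM in PR-957 (-0.42, SE 0.201, adjusted p = 0.581).

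The alternative caps of the core and its inhibitor were also within error. PSME4, the activator PA200, had 26.6 and 20.9 CPM of H3K27ac in DMSO and 28.0 and 27.3 CPM in PR-957 (0.20, SE 0.122, adjusted p = 0.72 in edgeR). PSME3, the nuclear activator PA28 gamma, had 17.3 and 18.3 CPM against 21.1 and 17.9 CPM (0.12, SE 0.146, adjusted p = 0.911), and PSMF1, the inhibitor PI31, 12.7 and 14.1 CPM against 12.7 and 13.6 CPM (-0.02, SE 0.172, adjusted p = 0.992). In H3K4me3 the differences of PSME3, PSME4 and PSMF1 were 0.00, 0.01 and 0.01, with adjusted p-values of 0.998, 0.986 and 0.996. In both marks the PSME3 interval is shared with BECN1 and the PSME4 interval with ACYP2.

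**Figure D2:**
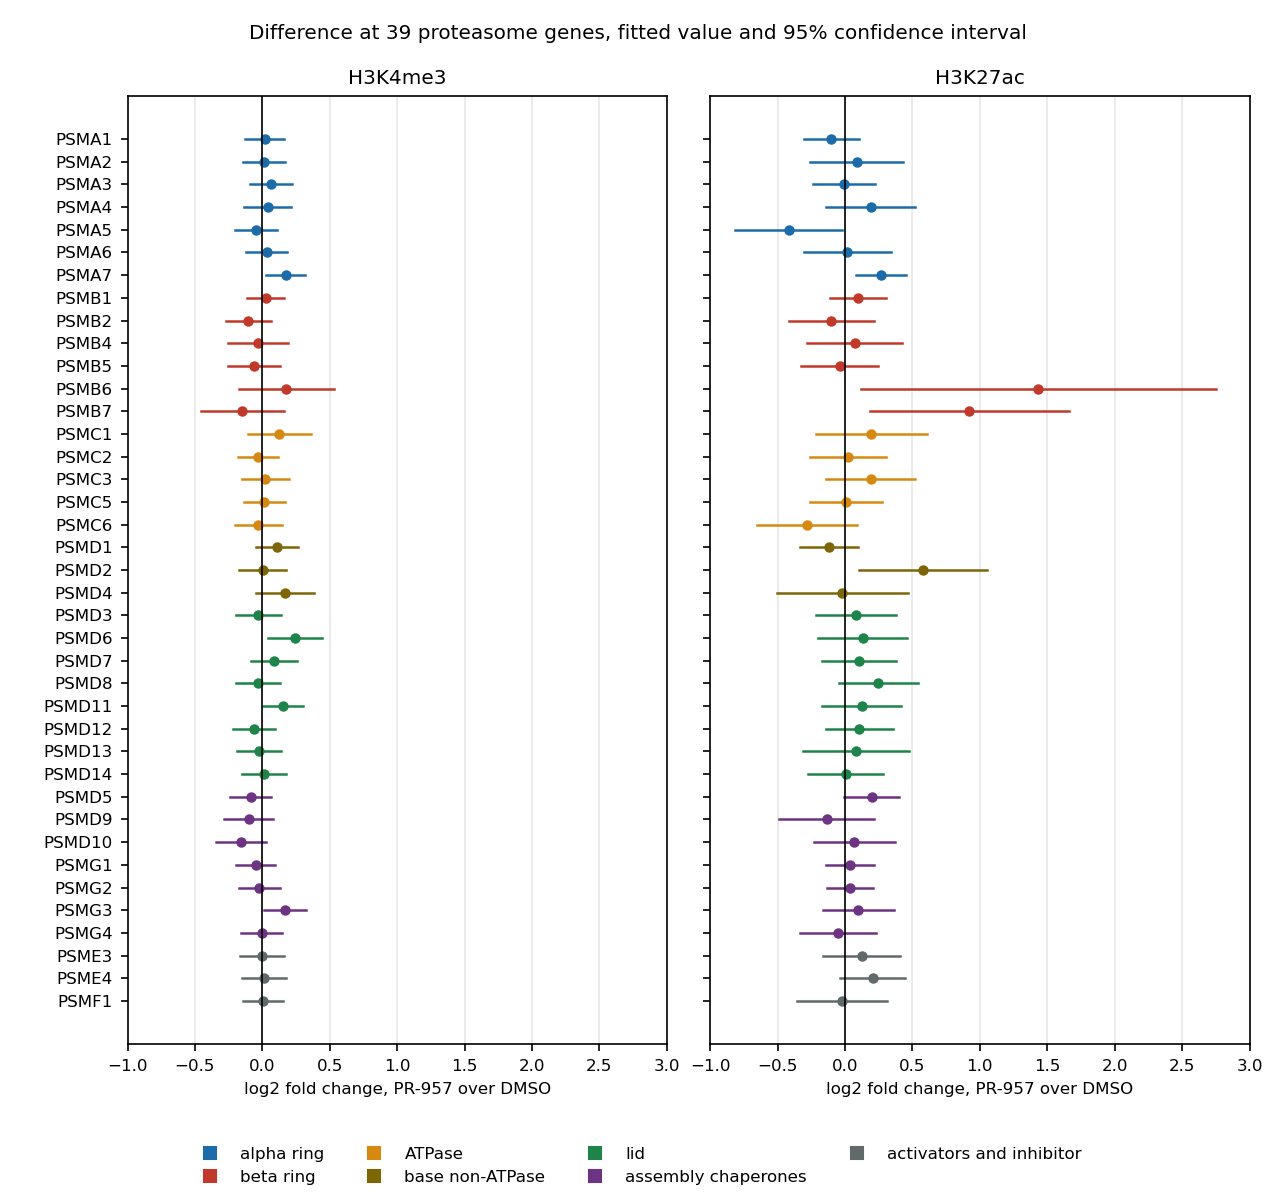
Log2 fold change of PR-957 over DMSO for H3K4me3 (left) and H3K27ac (right) at 39 proteasome genes. Points are the fitted values of edgeR and lines their 95% confidence intervals, coloured by role. In H3K4me3 all intervals are within 1.5-fold, whereas in H3K27ac PSMB6 and PSMB7 extend far to the right.

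H3K4me1 was thin at these genes. The 20 members with an interval had a median level of 0.719 CPM per kb in DMSO, at percentile 13.6 of genes with an interval, and 12 of 20 were among the lowest 25% of genes by the mean level of all libraries. The interval contained an annotated start for 10 of them and overlapped the H3K4me3 interval for 14. The highest level was that of PSMF1, with 31.6 and 26.9 CPM in DMSO and 29.5 and 30.5 CPM in PR-957 over 7138 bases, the treatments overlapping (0.03, SE 0.114, adjusted p = 0.919 in edgeR). PSMB7 came next with 25.5 and 27.1 CPM in DMSO and 25.8 and 25.1 CPM in PR-957 (-0.05, SE 0.115, adjusted p = 0.883). The PSMF1 interval holds 1 of the 11 annotated starts of the gene and lies 38.6 kb from the H3K4me3 interval. The PSMB7 interval lies inside the gene near an alternative start, 18.9 kb from the H3K4me3 interval. PSMB5 and PSMB6 had no H3K4me1 interval within 2 kb.

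No member passed the threshold in H3K4me1 among 20 tested, against 2.15% of 8702 protein-coding genes. At an unadjusted p below 0.05 there were 7 members in edgeR, 6 higher and 1 lower, and 3 in DESeq2, against 16.9% of genes in edgeR. Of the 8702 genes, 418 were higher and 1052 lower at this cut in edgeR. With offsets for GC content there were 2 members in edgeR. The share of all genes at this cut is not given for DESeq2 or for these offsets. The 3 smallest p-values belonged to genes of the alpha ring. PSMA3 had 0.339 and 0.627 CPM in DMSO and 1.28 and 1.74 CPM in PR-957 (1.68, SE 0.527, adjusted p = 0.0601 in edgeR), from 10 and 15 counts in DMSO and 20 and 40 in PR-957. PSMA4 had 0.373 and 0.962 CPM against 2.57 and 1.22 CPM (1.49, SE 0.476, adjusted p = 0.0654), and PSMA2 3.25 and 2.76 CPM against 5.58 and 3.83 CPM (0.62, SE 0.231, adjusted p = 0.133). In each of these both PR-957 libraries lay above both DMSO libraries, whereas the other alpha genes with an interval had differences of -0.01 (PSMA1) and -0.17 (PSMA6). In H3K27ac, H3K4me1 and H3K4me3 the PSMA1 interval held 2 of the 14 annotated starts of the gene and was shared with PDE3B. The RefSeq promoter of PSMA1 lies elsewhere, at chr11:14520446-14520636. The PSMA3 interval, chr14:58246310-58248486, begins downstream of the promoter shown above. The PSMA2 interval contains no annotated start and lies 3.31 kb from the H3K4me3 interval. The PSMA4 interval contains no annotated start either but overlaps the H3K4me3 interval.

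The differences of the members in H3K4me1 lay above those of most genes, which is given as a description without a test. Both PR-957 libraries were higher at 9 of 20 members (45%, against 15.3% of genes) and lower at 3 (15%, against 32.5%), and the median difference was 0.11 against -0.08 over all genes. The median was 0.05 with cyclic loess offsets, where 13 of 20 members rather than 16 lay above the median of all genes, and 0.03 over the 12 members with a mean count of at least 50. Level moved with this. Among the lowest 25% of all genes by mean level, 20.8% were higher in both PR-957 libraries and 51.4% had a positive difference, whereas among the highest 25% these shares were 9.05% and 21.1%. Within the lowest 25%, 7 of the 12 members (58.3%) were higher in both PR-957 libraries and 9 (75%) were positive. The median of the members was 0.35 when DMSO replicate 2 was omitted and 0.29 when PR-957 replicate 1 was, and 1 call was made without PR-957 replicate 2, for PSMA4 (1.98, adjusted p = 0.0136). Whether level or depth accounts for the difference to other genes was not tested.

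**Figure D3:**
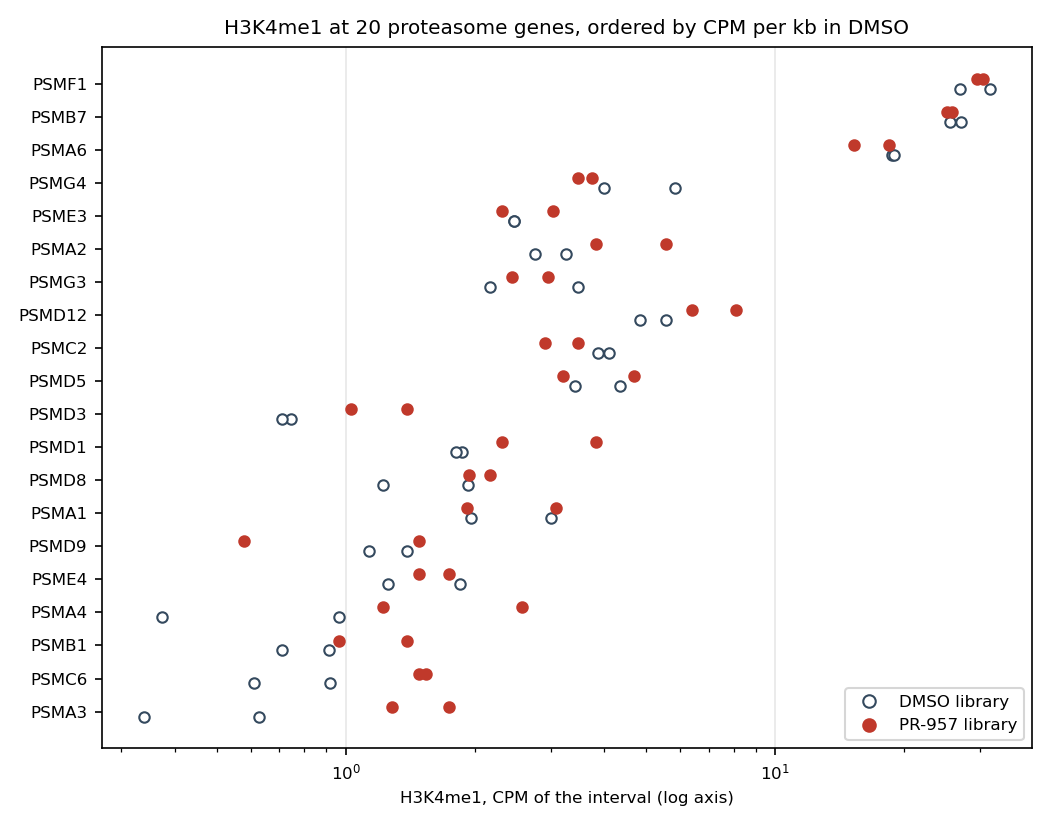
H3K4me1 at the 20 proteasome genes with an interval, as CPM of the interval on a log axis, ordered by CPM per kb in DMSO. Open circles are DMSO libraries and red circles PR-957 libraries. At PSMA3, PSMC6, PSMB1 and PSMA4, the lowest 4 in DMSO, both PR-957 libraries lie above both DMSO libraries. The order uses the DMSO libraries, which also enter the difference.

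H3K27me3 was found at PSMG2 and PSMG4, both assembly chaperones, and in each away from the active promoter. PSMG4 has 10 annotated starts, of which 7 lie in its H3K4me3 interval and 3 upstream ones in a broad H3K27me3 interval of 29629 bases, chr6:3223679-3253308. This interval is shared with TUBB2B, a tubulin gene on the opposite strand, and ends 4.78 kb before the H3K4me3 interval begins. At PSMG2 the H3K27me3 interval covers upstream starts near SPIRE1, 42 kb from the H3K4me3 interval.

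The PSMG4 interval was the only call among the members in any mark. It had 378 and 358 CPM in DMSO and 323 and 307 CPM in PR-957, without overlap, and fell by 0.23 on the log2 scale (SE 0.0507, adjusted p = 0.000577 in edgeR), to 0.855 of the DMSO level. The background of this mark was high, with 11.8% of 3874 protein-coding genes called and 9.99% called lower, and among the highest 25% of genes by level, to which PSMG4 belongs, 39.8% were called. With library size as the only scaling, the median of all genes moved from -0.02 to 0.14 and the PSMG4 difference to -0.06 (adjusted p = 0.411), a shift common to all intervals. With cyclic loess offsets the difference was -0.05 (adjusted p = 0.608). Relative to the median of all genes the difference was -0.21 as reported, -0.07 with cyclic loess offsets and -0.15 with offsets for GC content. Without DMSO replicate 1 it was -0.20 (adjusted p = 0.193) before this subtraction. The small H3K27me3 interval nearest to a start did not pass (-0.19, SE 0.478, adjusted p = 0.911).

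At the promoter of PSMG4 itself no mark passed the threshold. Its H3K4me3 level was 27.4 and 25.8 CPM in DMSO and 26.5 and 26.5 CPM in PR-957 (-0.01, SE 0.0789, adjusted p = 0.996 in edgeR), and its H3K27ac level was 18.8 and 20.2 CPM against 17.6 and 19.7 CPM (-0.05, SE 0.144, adjusted p = 0.972). The H3K4me1 interval of PSMG4, which overlaps its H3K4me3 interval, had 4.0 and 5.85 CPM in DMSO and 3.47 and 3.74 CPM in PR-957. The treatments did not overlap there (-0.43, SE 0.216, adjusted p = 0.295 in edgeR). PSMG2 had 4.44 and 2.56 CPM of H3K27me3 in DMSO and 4.82 and 4.64 CPM in PR-957 (0.45, SE 0.312, adjusted p = 0.539). No H3K27me3 interval lay within 2 kb of PSMB5, PSMB6 or PSMB7.

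**Figure D4:**
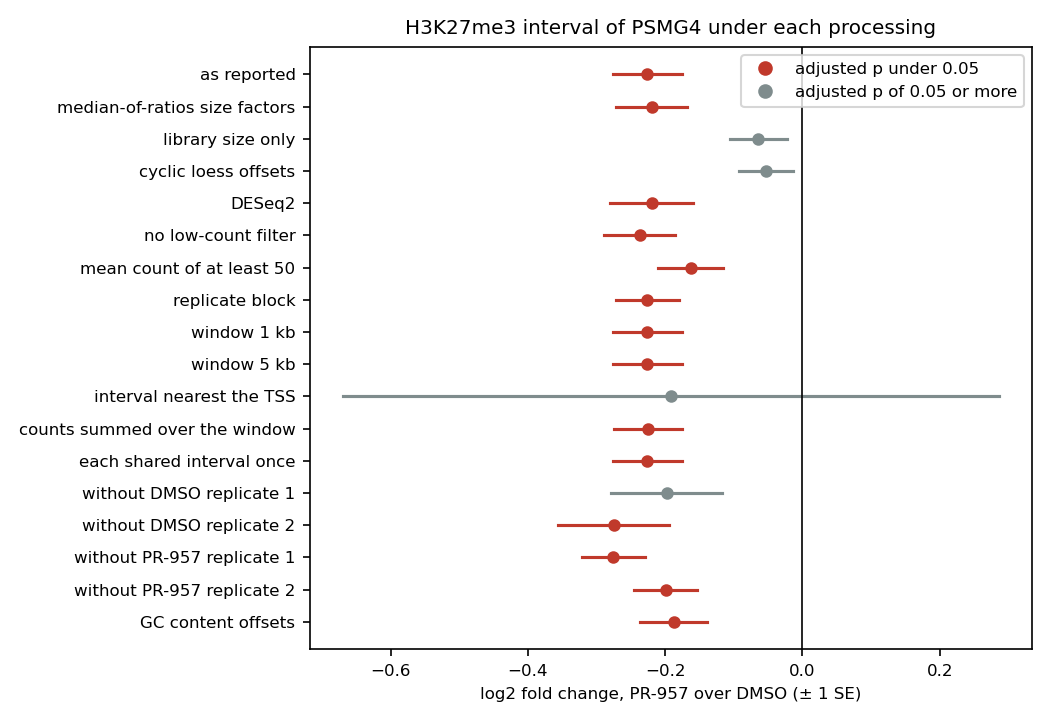
Log2 fold change of the H3K27me3 interval of PSMG4 under each way of processing the counts, with lines of 1 SE. Red points have an adjusted p under 0.05. All values are below 0, from -0.28 to -0.05, and library size only, cyclic loess, the interval nearest the start and the omission of DMSO replicate 1 end the call.

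Genes that work with the proteasome but do not follow the symbol rule gave a similar picture. Of 14 associated genes, such as ADRM1, POMP and USP14, 14 were tested in H3K27ac, 6 in H3K4me1 and 14 in H3K4me3, and none passed in edgeR (smallest adjusted p 0.446, 0.453 and 0.809). Of 7 regulators of proteasome genes, none of 7 passed in H3K27ac or H3K4me3, and 1 of 6 passed in H3K4me1. This was MAFG, a small MAF protein that pairs with NFE2L1 on DNA, whose H3K4me1 fell from 46.0 and 46.2 CPM in DMSO to 28.0 and 34.4 CPM in PR-957 (-0.55, SE 0.116, adjusted p = 0.00134 in edgeR). The call was lost in DESeq2 (adjusted p = 0.0593), which called 0 of 3508 protein-coding genes in this mark. It was also lost without PR-957 replicate 1, with a difference of -0.42. The H3K4me1 interval of MAFG, of 17200 bases, is shared with PYCR1 and SIRT7. Its level in DMSO was at percentile 84.6. Among the highest 25% of genes by H3K4me1 level, 48.5% were lower in both PR-957 libraries and 1.98% were called. H3K27ac at MAFG went the other way in an overlapping interval. It was 55.9 and 60.4 CPM in DMSO and 61.9 and 70.1 CPM in PR-957 (0.19, SE 0.0772, adjusted p = 0.436 in edgeR). NFE2L1 itself had 27.9 and 28.8 CPM of H3K27ac in DMSO and 28.6 and 34.1 CPM in PR-957 (0.16, SE 0.113, adjusted p = 0.799), and its differences in H3K4me1 and H3K4me3 were -0.05 and 0.02 (adjusted p = 0.891 and 0.978).

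Of the genes that the rule left out, PSMB10 had 23.5 and 23.2 CPM of H3K4me3 in DMSO and 24.8 and 25.2 CPM in PR-957 (0.10, SE 0.0808, adjusted p = 0.864 in edgeR), and 16.7 and 17.0 CPM of H3K27ac against 17.6 and 17.5 CPM (0.05, SE 0.152, adjusted p = 0.972). PSMB8, PSMB9, PSME1 and PSME2 are not analysed here.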

How the data were processed

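Cut&Tag libraries of MOLM-13 cells were aligned to hg38 with Bowtie2 by the authors. Their processing notes name Trimmomatic 0.39, Bowtie2 2.2.5, Picard 2.27.1, SAMtools 1.7, SEACR 1.3 and deepTools 3.5.1. The authors deposited whole-number counts per library over 1 list of intervals per mark, without normalization, and coordinates are given as listed. Intervals were filtered with filterByExpr (minimum count 10), normalized by TMM and tested within each mark in edgeR 4.0.16 (quasi-likelihood F-test, R 4.3.3), with Benjamini-Hochberg adjustment over all intervals, a threshold of 0.05 and no replicate block. The fit was also run on simulated counts drawn independently per interval, unlike the overlapping intervals here, and no conclusion is drawn from it. Confidence intervals use the fit's standard errors.

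Members and lists were chosen with earlier results of these data known. Given by name were PSMB5, PSMB6 and PSMB7, members past the threshold, the 3 smallest p-values and the highest and lowest levels per mark, the tissue-restricted members, activators and inhibitor, NFE2L1, the excluded genes and called pathway genes. PSMA1, PSMA5, PSMA6, PSMB1, PSMB4, PSMD3, PSMD7, PSMD10 and PSMG2 and the ends of the lid range were named after their values were seen.

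Alternatives were DESeq2 1.42.0, its size factors within edgeR, scaling by library size alone, cyclic loess (limma 3.58.1), other filters (none, or a mean count of at least 50), windows of 1 and 5 kb, the interval nearest a start, counts summed over the window, each shared interval once, the replicate block and leaving out each library. Offsets for GC content were added after seeing the data. Python 3.11.15 was used for annotation.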

Additional observations from a re-analysis of the deposited data

How the results depend on the processing

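Of 136 recomputed counts and medians, 125 kept their value within the limits set. A count kept its value if it was equal or within 1.5-fold. A median kept it within the SD of the members' median over the pairs of a PR-957 and a DMSO library. Taking each shared interval once could not change a result, since no interval is shared between members. The number of members past the threshold in H3K27me3 fell from 1 to 0 with library size only, with cyclic loess offsets and with the interval nearest the start, and it lay between 0 and 1 on omission of a library. For H3K4me1 it was 1 with library size only (PSMA3, adjusted p = 0.0497), 2 with counts summed over the window (PSMA2 and PSMD1), where overlapping intervals count a fragment more than once, and 0 to 1 on omission of a library. The median log2 difference in H3K27me3, over 2 members, was -0.16 with a mean count of at least 50, which left PSMG4 alone, and -0.10 to 0.34 on omission of a library. In H3K4me1 it was 0.12 to 0.35 on omission of a library. GC content offsets changed no count of calls, and left 2 members of H3K4me1 at an unadjusted p below 0.05, with no share of all genes given. The cause of these shifts was not tested beyond these constructions. No call was reversed.

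The labels do not say whether same-numbered libraries belong together. The correlation of same-numbered deviations was -0.00498 in H3K27ac, -0.00888 in H3K27me3 and -0.00125 in H3K4me1, but 0.152 in H3K4me3. With the replicate block 0, 1, 0 and 0 members passed in H3K27ac, H3K27me3, H3K4me1 and H3K4me3, with medians of 0.08, 0.12, 0.09 and 0.00. At promoters of few counts the errors were wide at this depth, as for the H3K27ac of PSMB6, whose 95% confidence interval was 0.12 to 2.75 on the log2 scale.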
